A study of Mus musculus with 2 samples.

Results

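Plasmacytoid dendritic cells (pDCs) made up 102 of the 34471 cells kept from single-cell RNA sequencing of subcutaneous mouse tumours, 67 of 20312 cells in a library from mice on a diet free of serine and glycine and 35 of 14159 cells in a library from mice on a control diet. They were chosen by their RNA. A cell had at least 500 unique molecular identifiers (UMIs, tags that each mark 1 captured RNA molecule), at least 300 genes and at most 20% mitochondrial UMIs. It carried at least 1 Siglech UMI and at least 3 UMIs of Siglech, Ccr9, Klk1 and Mctp2 together, with no Cd3e (T cells), no Xcr1 (conventional type 1 dendritic cells), at most 1 UMI of C1qa, C1qb and C1qc together (macrophages) and at most 3 UMIs of Hmga2 and Rhox5 together (the tumour cells). The levels of these genes in the chosen cells are therefore a description of the choice and not a result.

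The tumours were grown under the skin and the mice differed by diet alone as far as the labels say. The labels abbreviate the diets, and the study's design text gives them as lacking serine and glycine or as control. The labels used here do not state the mouse strain, age, tumour line or number of mice, and the protocol text names a human heart tissue, which disagrees with the mouse tumour named elsewhere. Each diet had 1 library, so no difference between the diets has a replicate check and no p-value is given.

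Plasmacytoid dendritic cells are the immune cells best known for releasing large amounts of type I interferon when Toll-like receptors inside their endosomes meet viral nucleic acids. Their fate depends on the E protein Tcf4 (also called E2-2), which binds the DNA letters known as the E-box, while the inhibitor Id2 blocks E proteins and is high in conventional dendritic cells. In tumours they are known as a rare population that can be poor at making interferon.

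The promoters of Siglech, the sialic acid-binding receptor whose RNA every member carries, and of Ccr9, the receptor for the chemokine CCL25, are shown because E proteins read E-boxes and because both genes define the cells. Each is the 250 bases before the gene's RefSeq start in GRCm38.p6 on the plus strand, with capitals marking the E-box letters CANNTG, which read the same on both strands.
Siglech, chr7:55767934-55768183: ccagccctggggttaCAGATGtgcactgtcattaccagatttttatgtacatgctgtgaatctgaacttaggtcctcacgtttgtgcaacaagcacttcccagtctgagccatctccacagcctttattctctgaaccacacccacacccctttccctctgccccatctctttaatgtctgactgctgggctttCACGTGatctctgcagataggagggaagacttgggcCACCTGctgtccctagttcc
Ccr9, chr9:123766961-123767210: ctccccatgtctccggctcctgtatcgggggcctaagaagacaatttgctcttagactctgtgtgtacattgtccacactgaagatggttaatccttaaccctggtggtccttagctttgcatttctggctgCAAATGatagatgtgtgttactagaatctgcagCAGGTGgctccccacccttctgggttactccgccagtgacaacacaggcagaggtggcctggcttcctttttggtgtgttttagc
The Siglech window held 3 E-boxes and the Ccr9 window held 2. Of 32851 RefSeq promoter windows of the same length, 66.2% held at least 1 E-box, 31.8% at least 2 and 12.2% at least 3, so these letters are common. A match is a description of the letters and no evidence of binding.

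The libraries were of nearly equal total depth but differed in depth per cell. They held 173592046 UMIs in the serine/glycine-free library and 173785388 UMIs in the control library, with medians of 7476 and 11205 UMIs per barcode. The pDCs were shallow, with a median of 2461 UMIs (871 to 6350) and 1374 genes in the serine/glycine-free library and 2753 UMIs (899 to 4663) and 1481 genes in the control library. Summed, the pDCs held 168238 UMIs in the serine/glycine-free library and 101605 UMIs in the control library, and all intervals below cover the counting error of such sums only. The libraries shared 87 barcodes, and none of these was a pDC.

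The chosen cells stood well apart from the threshold. The summed UMIs of the 4 choosing genes had a median of 21 (3 to 57) in the serine/glycine-free library and 28 (6 to 64) in the control library, and no cell with a sum of 1 or 2 met the other conditions. A single serine/glycine-free cell lay at the threshold of 3, and the next lowest sum there was 8. All 4 genes were seen in 55 of 67 serine/glycine-free cells and in 30 of 35 control cells. Siglech had a median of 5 UMIs per cell (1 to 14) in serine/glycine-free cells and 8 (2 to 16) in control cells. Klk1, a kallikrein serine protease, had a median of 6 (0 to 37) in serine/glycine-free cells and 9 (0 to 24) in control cells. Reads of Klk1 may be shared with its near-identical Klk1b relatives.

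**Figure D1:**
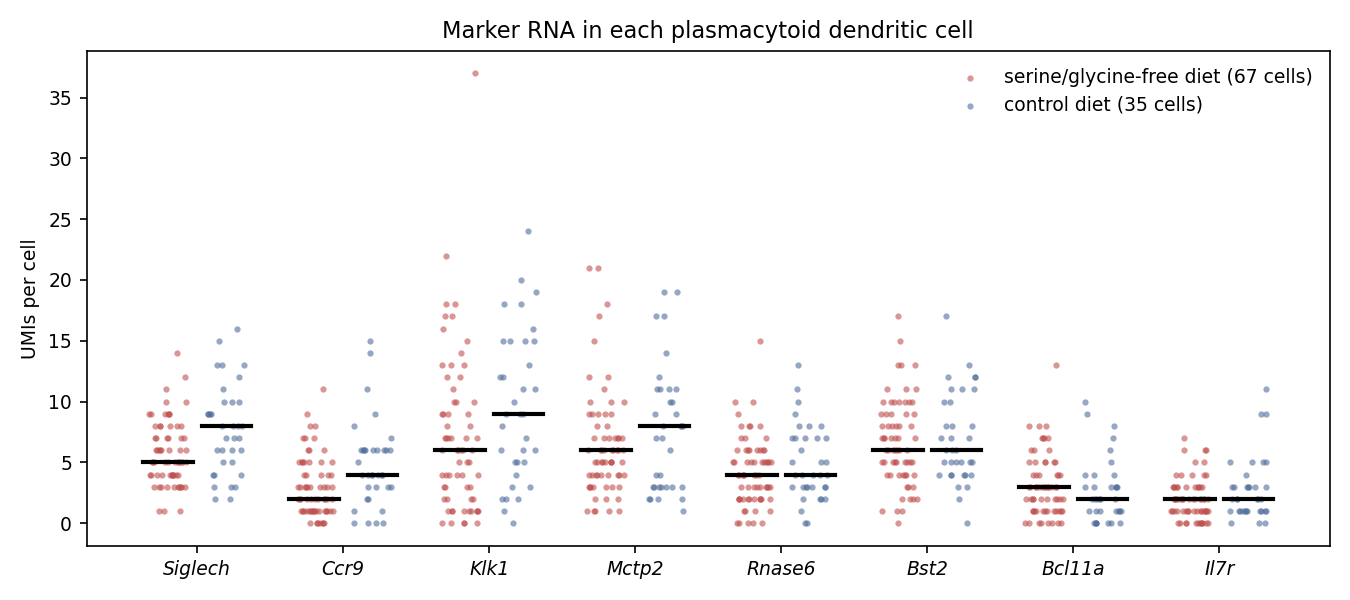
UMIs per cell (vertical axis) of the choosing genes Siglech, Ccr9, Klk1 and Mctp2 and of Rnase6, Bst2, Bcl11a and Il7r in each pDC, with the serine/glycine-free library (67 cells) left of the control library (35 cells) and a bar at the median. The clouds of both libraries overlap for every gene, with the Siglech medians at 5 and 8 UMIs.

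The chosen cells also carried other genes known from pDCs, whose UMIs the choice did not count. These are not independent of the choice. Rnase6 was named with the rule as a marker, and reads of Klk1b27 may be shared with the choosing gene Klk1. The lists were chosen with earlier results of these data known, so their counts are a description. Of 25 other genes known from pDCs, a member carried a median of 16 (7 to 21) in the serine/glycine-free library and 16 (10 to 21) in the control library. Cells chosen in the same way as conventional type 1 dendritic cells (cDC1s, by Xcr1, Clec9a, Wdfy4 and Naaa) carried a median of 4 in the serine/glycine-free library and 3 in the control library, with medians of 4489 and 5493 UMIs per cell. Rnase6, a secreted ribonuclease, was seen in 62 of 67 serine/glycine-free pDCs and 33 of 35 control pDCs. The T-cell genes Cd3d, Cd3g, Trac and Trbc2 and the NK-cell genes Ncr1, Klrb1c, Gzma and Klre1 were at 0 UMIs in the pDCs of both libraries. Cd4, Cd8a and Cd8b1, also known from T cells, were seen, and the NK receptor gene Klrd1, singled out after its values were seen, had 34 UMIs in serine/glycine-free pDCs and 30 in control pDCs. Of the B-cell and plasma-cell list of 9 genes, 5 were at 0 in both libraries, Ms4a1, Cd79a and Pax5 among them. The summed list nonetheless held 219 UMIs (1302 CPM) in serine/glycine-free pDCs and 145 UMIs (1427 CPM) in control pDCs, against 134 and 66.4 CPM in cDC1s, nearly all from Ighm, Mzb1 and Igkc. Of 10 listed macrophage genes, Csf1r, Adgre1 and Fcgr1 were at 0 in both libraries, and the other 7 had a UMI in pDCs. Of 2 compared with cDC1s, Apoe was at least 2-fold higher in pDCs in both libraries and 1 was at least 2-fold lower. The summed macrophage list of 10 genes held 57 UMIs in serine/glycine-free pDCs and 23 in control pDCs.

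Going by Hmga2 and Rhox5, an estimated 4.08% of the RNA in serine/glycine-free pDCs and 3.23% in control pDCs matched that of tumour cells. The choice of cells capped these same 2 genes, so the estimate describes the chosen cells and is no measure of tumour RNA apart from that limit. Siglech was seen in 12 of 10936 tumour cells (0.110%) in the serine/glycine-free library and in 5 of 9908 (0.0505%) in the control library, at median depths of 10245.5 and 13527 UMIs. Whether free RNA or doublets gave these UMIs was not tested, and 1 serine/glycine-free tumour cell carried 14 of the 25 other pDC genes. The limit on tumour genes alone removed 19 Siglech-positive cells from the serine/glycine-free library and 7 from the control library. These were deep, with medians of 12348 and 18349 UMIs, and the doublet caller Scrublet marked 16 of the 19 and 3 of the 7. It marked 2 of the 67 serine/glycine-free members and none of the 35 control members.

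The share of pDCs was 0.330% of kept cells in the serine/glycine-free library (95% Clopper-Pearson interval 0.256 to 0.419%) and 0.247% in the control library (0.172 to 0.344%). The ratio was 1.33 with an interval of 0.874 to 2.07, so a difference was not detectable at this number of cells. Among cells with the leukocyte gene Ptprc and few tumour UMIs, pDCs made up 66 of 3471 cells (1.90%) in the serine/glycine-free library and 35 of 1961 (1.78%) in the control library, a ratio of 1.07 (0.697 to 1.65). With every cell thinned to 2000 UMIs the share was 0.335% in the serine/glycine-free library and 0.230% in the control library. Thinning left out 2408 and 669 shallower cells, 14 and 5 of them members. Of the 60 serine/glycine-free and 31 control cells chosen after thinning, 53 and 30 were members at full depth. The rest met the conditions only after thinning, so the thinned share is not of the same cells. The cDC1s numbered 85 cells (0.418%) in the serine/glycine-free library and 76 cells (0.537%) in the control library, a ratio of 0.780 with an interval of 0.565 to 1.08 that held 1. As a share of both dendritic cell types, pDCs were 44.1% in the serine/glycine-free library and 31.5% in the control library, a ratio of 1.40 with an interval of 0.916 to 2.17 that held 1.

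**Figure D2:**
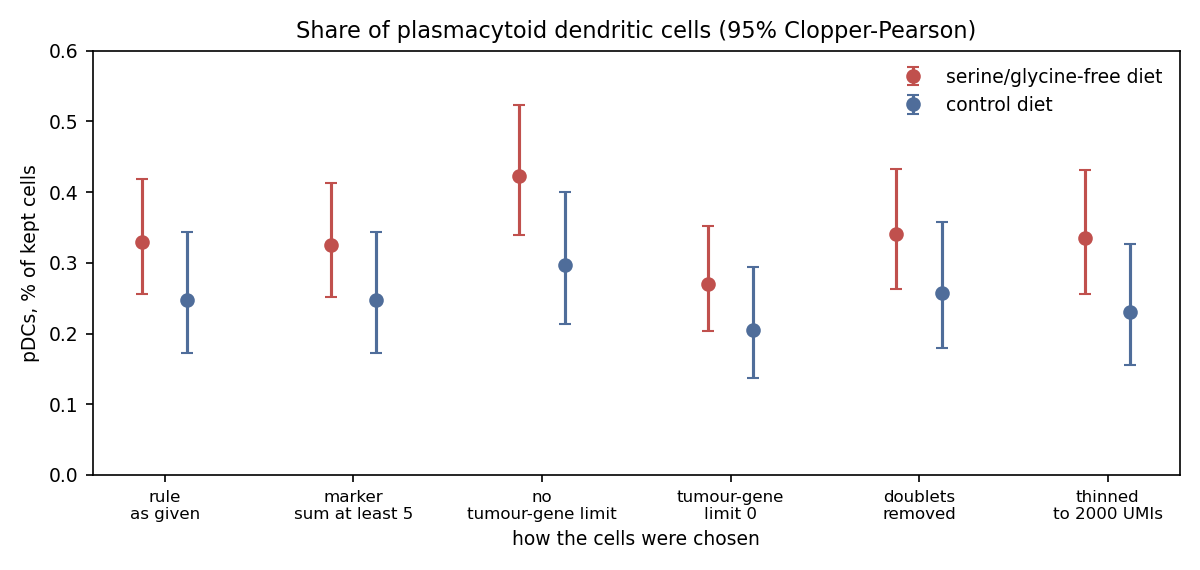
Share of pDCs among kept cells (vertical axis, percent, with 95% Clopper-Pearson intervals) in the serine/glycine-free and control libraries under 6 ways of choosing the cells. The serine/glycine-free point lies above the control point in each, by the rule as given at 0.330% and 0.247%, and the intervals overlap throughout.

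Transcription factors of the pDC fate were high in the pDCs of both libraries, and their opponents in conventional dendritic cells were low or not seen. Levels are summed UMIs scaled to counts per 1000000 (CPM). Tcf4 stood at 4654 CPM (4334 to 4992) in serine/glycine-free pDCs and 4281 CPM (3888 to 4703) in control pDCs, against 34.7 and 34.4 CPM in the cDC1s of these libraries. Id2 showed the reverse, with 17.8 CPM in serine/glycine-free pDCs and 9.84 CPM in control pDCs, from 3 UMIs and 1 UMI, against 1370 and 1218 CPM in cDC1s. Both genes thus separated the 2 dendritic cell types in each library, in opposite directions. Tumour cells also carried Tcf4, at 249 CPM in the serine/glycine-free library and 258 CPM in the control library.

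Bcl11a, a zinc finger factor that pDC development needs, stood at 1254 CPM in serine/glycine-free pDCs and 925 CPM in control pDCs, against 32.3 and 32.1 CPM in cDC1s. Runx2, which is needed for pDCs to leave the bone marrow, stood at 2366 and 1722 CPM in pDCs, against 19.9 and 11.5 CPM in cDC1s. Spib, an Ets factor, stood at 184 and 236 CPM in pDCs and was at 0 UMIs in cDC1s. The pan-lineage factor Irf8 did not separate the types by 2-fold, with 3661 and 3100 CPM in pDCs against 2759 and 2602 CPM in cDC1s. Batf3 and Zbtb46, factors of conventional dendritic cells, had no UMI in any pDC, while cDC1s held 96.8 and 137 CPM of Batf3 and 141 and 112 CPM of Zbtb46. Zeb2, which restrains Id2, stood at 701 and 817 CPM in pDCs against 9.93 and 18.3 CPM in cDC1s. Of 23 listed factors, 19 had at least 20 UMIs over both cell types in each library, and 8 of these were at least 2-fold higher and 7 at least 2-fold lower in pDCs in both libraries.

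Across all 4063 genes compared with cDC1s, 550 (13.5%) were at least 2-fold higher and 496 (12.2%) at least 2-fold lower in pDCs in both libraries, with median log2 ratios of 0.04 in the serine/glycine-free library and 0.06 in the control library. Both types were chosen by RNA, so these ratios describe the chosen cells and carry no test. Of the 25 known pDC genes, 21 had at least 20 UMIs over both types in each library and 20 of these were at least 2-fold higher. A gene scarce in cDC1s passed that minimum only through pDCs. In opposite directions in the libraries, 9 genes were at least 2-fold apart, and 0 of these had counting intervals without 1 in both.

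The genes furthest above cDC1s came from several families. Where cDC1s had no UMI, the fold was taken against a floor of 3 UMIs over the library's cDC1s and is a lower bound. Il7r, the interleukin 7 receptor, was at least 109-fold higher in the serine/glycine-free library and at least 139-fold higher in the control library. Atp1b1, a sodium pump subunit, was at least 126-fold and 103-fold higher in these libraries. Tmem108 (at least 75.1-fold and 67.3-fold), the calcium sensor Ncald (62.3 and 68.8), the glutamate receptor Gria3 (57.5 and 60.2), the adaptor Sla2 (56.7 and 68.8), the complement inhibitor Cd59a (53.5 and 55.9), Smim5 (51.9 and 50.1) and Gm21762 (68.7 and 98.8) were likewise without a UMI in cDC1s. Cacna1e, a calcium channel, had 195 UMIs in serine/glycine-free pDCs against 1 in cDC1s, and 92 in control pDCs against 0.

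**Figure D3:**
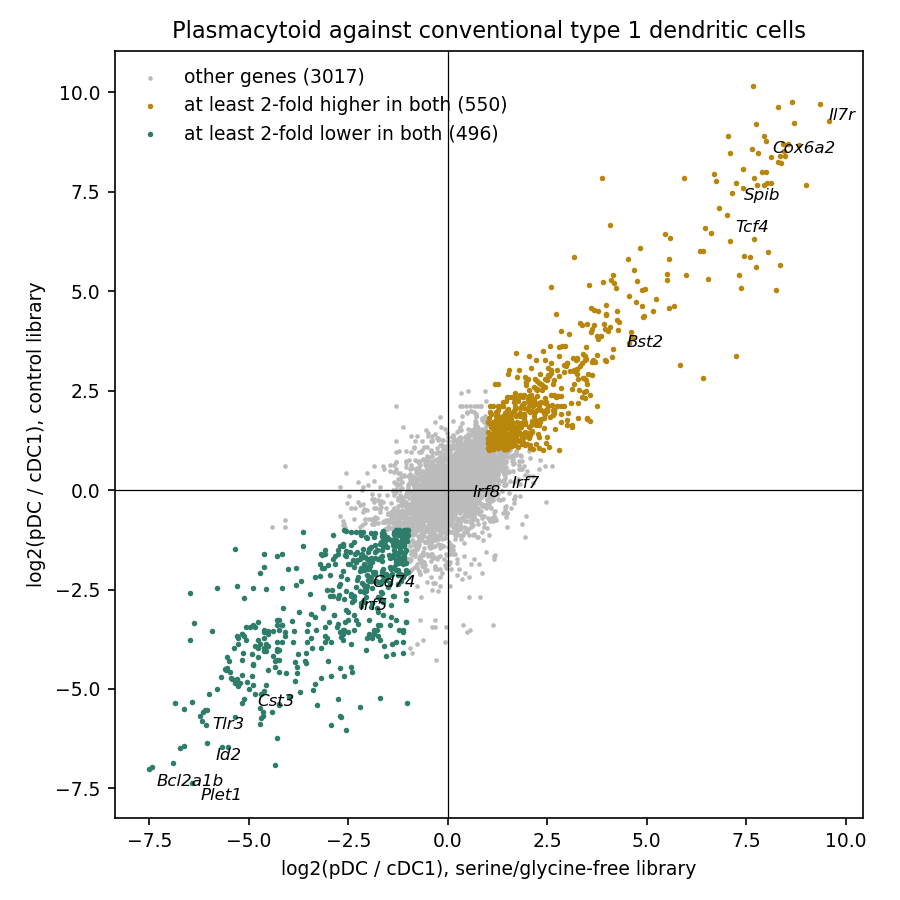
Log2 ratio of pDC over cDC1 levels (with 0.5 UMI added to each sum) in the serine/glycine-free library (horizontal axis) and the control library (vertical axis), 1 point per gene. The 550 genes at least 2-fold higher in both libraries lie at the upper right with Il7r and Tcf4, and the 496 genes at least 2-fold lower lie at the lower left with Id2 and Plet1.

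The genes furthest below cDC1s had few or no UMIs in pDCs. These genes passed the minimum of 20 UMIs only through cDC1s, so their low counts in pDCs describe the choice. The survival genes Bcl2a1b, Bcl2a1d and Bcl2a1a, near-identical copies whose reads can be split between them, had none, and Bcl2a1b was at least 30.5-fold lower in the serine/glycine-free library and at least 21.4-fold lower in the control library. Itgae, the CD103 integrin chain, was at least 19.9-fold and 19.3-fold lower. Cd83, a maturation marker, was at least 16.6-fold and 14.3-fold lower, and Plet1 at least 14.2-fold and 27.4-fold lower. The inflammatory cytokine Il1b was at least 11.3-fold and 9.93-fold lower. Tbc1d9, St3gal5 and Sept3 completed the 12 lowest with Id2 and Tlr3.

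Among the sensors, Tlr7, which recognises single-stranded RNA in endosomes, was present and Tlr9, which recognises unmethylated CpG DNA, was not seen. Tlr7 stood at 232 CPM (165 to 317) in serine/glycine-free pDCs and 187 CPM (113 to 292) in control pDCs. It was seen in 28 of 67 serine/glycine-free pDCs (41.8%) and 14 of 35 control pDCs (40.0%), against 0.265% and 0.252% of the deeper tumour cells. Tlr9 had 0 UMIs in 67 serine/glycine-free cells and in 35 control cells, which allows up to 4.48% and 8.57% of cells with a Tlr9 UMI and sets no limit on cells that express the gene. All kept cells together held 12 Tlr9 UMIs in the serine/glycine-free library and 6 in the control library, and the 258 serine/glycine-free B cells held 1. At this depth an absence of Tlr9 RNA is not shown.

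Tlr3, a sensor of double-stranded RNA, had no UMI in pDCs, against 208 CPM in serine/glycine-free cDC1s and 234 CPM in control cDC1s. Unc93b1, which carries these receptors to endosomes, stood at 594 CPM in serine/glycine-free pDCs and 561 CPM in control pDCs, against 308 and 330 CPM in cDC1s. Pld4, an exonuclease that limits nucleic acid sensing, stood at 684 and 718 CPM in pDCs, against 203 and 268 CPM in cDC1s. Pacsin1, an adaptor with a role in the pDC interferon response, stood at 535 and 364 CPM in pDCs, against 19.9 and 6.87 CPM in cDC1s. The adaptor gene Tyrobp, through which Siglech signals, stood at 1468 CPM (1291 to 1663) in serine/glycine-free pDCs and 2136 CPM (1861 to 2440) in control pDCs. Its log2 ratio between the diets was -0.54 (-0.81 to -0.27), short of 2-fold.

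Interferon RNA itself was almost not seen. The 14 interferon alpha genes in the matrix held 0 UMIs in the pDCs of both libraries, and 1 UMI in all kept serine/glycine-free cells against 0 in all kept control cells. Ifnb1 had 2 UMIs in 1 serine/glycine-free pDC and 0 in control pDCs. The interferon alpha genes are near-identical copies, so their counts are uncertain. Irf7, the factor that drives interferon alpha, stood at 279 CPM (205 to 371) in serine/glycine-free pDCs and 305 CPM (207 to 433) in control pDCs. The interferon-induced surface protein gene Bst2, a marker of mouse pDCs, stood at 2681 and 2401 CPM in pDCs, against 136 and 147 CPM in cDC1s.

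**Figure D4:**
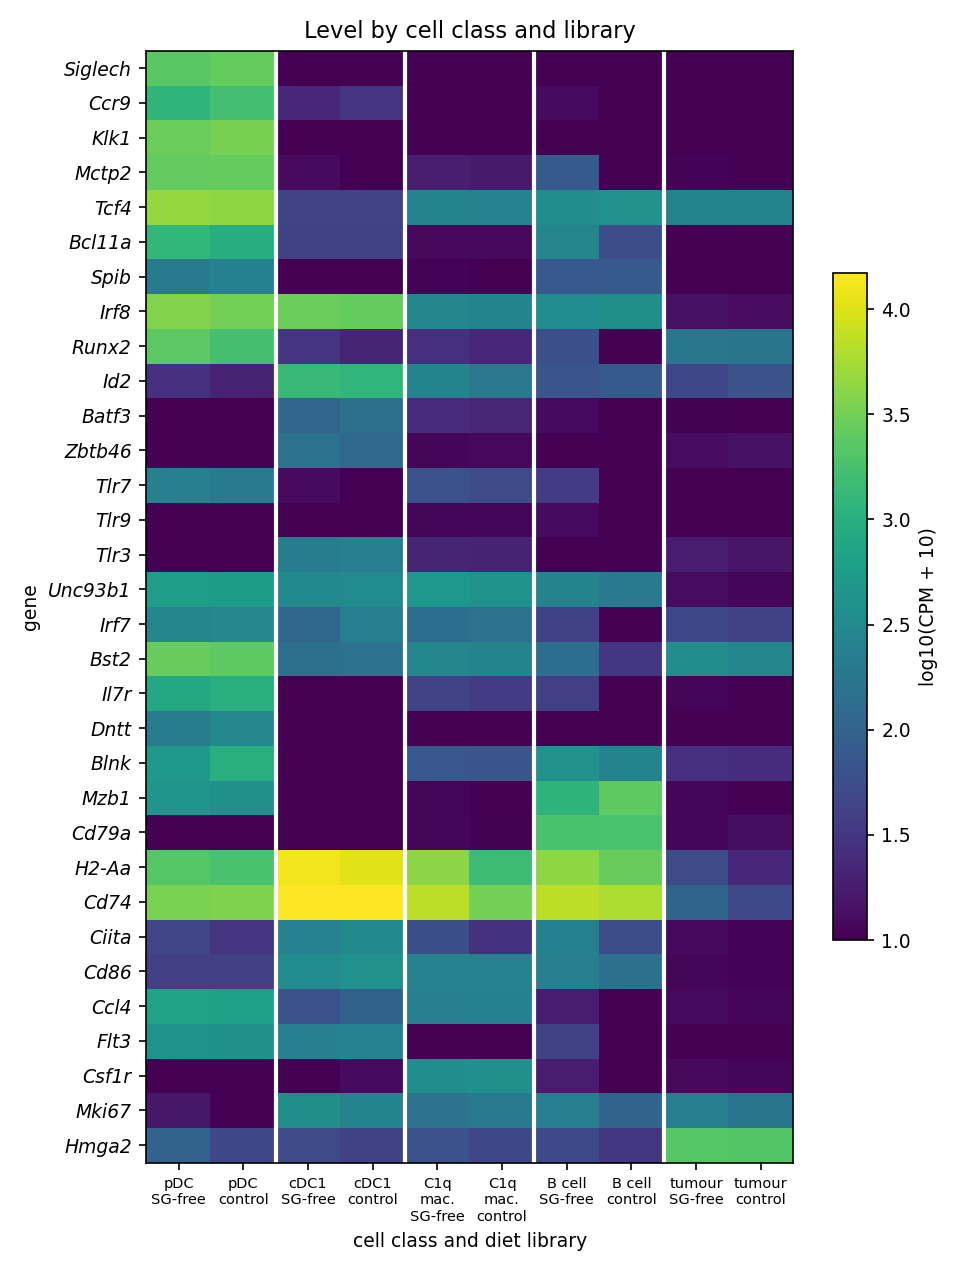
Levels of 32 genes as log10 of CPM plus 10 (colour) in pDCs, cDC1s, C1q macrophages, B cells and tumour cells, each with the serine/glycine-free library left of the control library. Tcf4, Runx2 and Il7r are bright in pDCs of both libraries, Id2, Batf3 and Tlr3 in cDC1s, and the B-cell gene Cd79a is at 0 in pDCs.

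Class II antigen presentation genes were expressed in pDCs at a lower level than in cDC1s. Of 12 compared, 0 were at least 2-fold higher and 10 at least 2-fold lower in both libraries, where 13.5% and 12.2% of all genes were. H2-Aa stood at 2134 CPM in serine/glycine-free pDCs and 1831 CPM in control pDCs, against 12546 and 10672 CPM in cDC1s. Cd74, the invariant chain, stood at 3448 and 3592 CPM in pDCs, against 14814 and 14577 CPM in cDC1s. Ciita, the master activator of class II genes, had 6 UMIs in serine/glycine-free pDCs and 2 in control pDCs, against 100 and 139 UMIs in cDC1s. The costimulatory gene Cd86 stood at 29.7 and 29.5 CPM in pDCs, against 325 and 392 CPM in cDC1s. The class I genes named here were level or higher in pDCs, with B2m at 2360 and 2165 CPM in pDCs against 2079 and 2171 CPM in cDC1s, and H2-T23 at 761 and 827 CPM in pDCs against 362 and 339 CPM in cDC1s. The peptide transporter genes Tap1 and Tap2 were at least 2-fold lower in both libraries.

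Receptors for trafficking and growth factors gave a mixed picture. Ccr7, which guides mature dendritic cells to lymph nodes, had no UMI in pDCs. Ccr2 differed by less than 2-fold between the cell types, at 351 CPM in serine/glycine-free pDCs and 443 CPM in control pDCs against 333 and 311 CPM in cDC1s. Flt3, the receptor for the main dendritic cell growth factor, stood at 404 and 384 CPM in pDCs, against 228 and 245 CPM in cDC1s. The interferon receptor gene Ifnar2 stood at 874 and 1132 CPM in pDCs, against 233 and 250 CPM in cDC1s. Lifr, the leukemia inhibitory factor receptor, stood at 600 and 502 CPM in pDCs, against 4.96 and 4.58 CPM in cDC1s.

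Some genes of lymphocyte development were carried by pDCs. This list of 23 genes was chosen after values had been seen, 16 of them had a UMI in pDCs, and its values are a description. Dntt, the DNA polymerase that adds bases at antigen receptor joins, stood at 208 CPM (145 to 289) in serine/glycine-free pDCs and 305 CPM (207 to 433) in control pDCs, and was at 0 in cDC1s, C1q macrophages and B cells. Blnk, the B-cell linker protein, stood at 499 CPM in serine/glycine-free pDCs and 974 CPM in control pDCs. Blnk had no UMI in cDC1s and stood at 389 and 254 CPM in the B cells of these libraries. The B cells numbered 258 and 18, so the control B-cell values rest on few cells, with 11 Blnk UMIs. Mzb1, a chaperone of antibody-secreting cells, stood at 440 and 384 CPM in pDCs, against 1157 and 2445 CPM in B cells. Rag1, Rag2, Ebf1 and Gata3 had no UMI in pDCs.

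Cd4 and Cd8a, which mouse pDCs are known to carry, were each seen in part of the cells. Cd4 was seen in 25 of 67 serine/glycine-free pDCs and 11 of 35 control pDCs, Cd8a in 24 and 9, and both in 8 and 3. Cd8a stood at 232 CPM (165 to 317) in serine/glycine-free pDCs and 98.4 CPM (47.2 to 181) in control pDCs, a log2 ratio of 1.18 (0.21 to 2.40). In cDC1s Cd8a had 10 UMIs in the serine/glycine-free library and 1 in the control library, so the same order was seen there.

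Single pDCs differed in Tpt1, the translationally controlled tumour protein gene, and in the chemokine Ccl4, which draws T cells and NK cells. Ccl4 was at 0 UMIs in 45 of 67 serine/glycine-free pDCs and 22 of 35 control pDCs, yet reached 15 UMIs in a serine/glycine-free cell and 17 UMIs in a control cell. The 5 highest cells held 51.8% of its UMIs in the serine/glycine-free library and 78.8% in the control library. Summed, Ccl4 was nearly level between the diets, at 654 CPM and 650 CPM. With each cell thinned to 1500 UMIs, its variance over mean was 4.31 in serine/glycine-free cells and 5.37 in control cells, against medians of 1.14 and 1.20 over 409 genes. By the lower of both libraries' values Tpt1 ranked first, with 4.68 and 5.91, ahead of Ccl4. The axon guidance gene Slit2 followed with 5.98 and 4.03, and Cd74 with 4.55 and 3.02. Cd74 was at 0 UMIs in 12 of 67 serine/glycine-free cells and 4 of 35 control cells, with medians of 8 and 10 UMIs and highest values of 31 and 29.

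Most genes differed by less than 2-fold between the diets in pDCs. Of 2634 genes with at least 20 UMIs over both libraries, 116 (4.4%) were at least 2-fold higher and 73 (2.77%) at least 2-fold lower in serine/glycine-free pDCs. With a counting interval of the ratio that did not hold 1, 62 (2.35%) were at least 2-fold higher and 44 (1.67%) at least 2-fold lower. The median log2 ratio was -0.01, with the 5th and 95th percentiles at -0.83 and 0.94. Irrespective of size, 193 genes (7.33%) had an interval that did not hold 1. These counts compare 2 libraries and not the conditions.

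Of 23 measured pDC genes 0 were higher and 0 lower past both limits, with a median log2 ratio of 0.16. With 2.35% and 1.67% of all genes past them, a count of 0 in lists of this size says nothing particular about their members. Of 13 transcription factors 0 were higher and 0 lower, with a median of 0.07, and of 13 endosomal sensing genes likewise 0 and 0, with a median of 0.08. Of 12 type I interferon response genes, Usp18 was higher and Ifi27l2a lower, with a median of 0.03. Of 8 class II genes, March1 was higher and H2-DMb1 lower. Of 24 secretory pathway genes Sec61a1 was lower, and of 10 homing genes Cd9 was higher. Of 15 interferon gamma and class I genes and of 8 growth factor receptors, 0 were higher and 0 lower. Cd9 stood at 137 CPM in serine/glycine-free pDCs and 49.2 CPM in control pDCs, against 1203 and 1184 CPM in the tumour cells.

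Tgfb1 and Klf2, of other lists, also passed, where 2.35% of all genes were higher and 1.67% lower. Tgfb1 is an immunosuppressive cytokine, and only 2 of the 17 genes of its list were measured. It had 32 UMIs in serine/glycine-free pDCs and 7 in control pDCs, a log2 ratio of 1.39 (0.26 to 2.89). Usp18, already counted above, dampens interferon signalling. It had 19 UMIs in 7 serine/glycine-free cells and 3 UMIs in 3 control cells, a ratio of 1.75 (0.17 to 4.33). Klf2, of the list of genes that tissue dissociation induces, had 24 UMIs in serine/glycine-free pDCs and 32 in control pDCs, a ratio of -1.14 (-1.97 to -0.33). The other 9 measured genes of that list did not pass.

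Genes of serine and one-carbon metabolism, which the diet bears on, were too low in pDCs to compare one by one. None of the 24 genes reached 20 UMIs. Summed, they held 60 UMIs or 357 CPM (272 to 459) in serine/glycine-free pDCs and 41 UMIs or 404 CPM (290 to 547) in control pDCs. Phgdh, the first enzyme of serine synthesis, had 3 UMIs in each library's pDCs, against 305 CPM in serine/glycine-free tumour cells and 298 CPM in control tumour cells. Of 6 measured targets of the amino acid stress factor ATF4, 0 were higher and 0 lower, with a median log2 ratio of 0.10.

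Respiratory chain genes had a lower summed level in serine/glycine-free pDCs. Of 19 measured, 15 had a negative log2 ratio, with a median of -0.26, and Cox7b alone passed the 2-fold rule. The median log2 ratio over all 2634 measured genes was -0.01. At equal depth the ribosomal protein genes Rpl11 and Rps29 were lower there too, and Rpl5 and Rplp0 were higher. Whether the lower level is particular to respiratory chain genes was not tested. Their sum was 3977 CPM (3681 to 4290) in serine/glycine-free pDCs and 4842 CPM (4424 to 5290) in control pDCs. In cDC1s the sums were 5625 and 5538 CPM. The median mitochondrial share of UMIs in pDCs was 4.04% in the serine/glycine-free library and 4.86% in the control library, and the part of RNA quality was not tested. Of 11 glycolysis genes Pgk1 was higher, with 44 UMIs in serine/glycine-free pDCs and 9 in control pDCs, a log2 ratio of 1.50 (0.51 to 2.78). A single serine/glycine-free cell marked as a doublet held 91 UMIs of the glycolysis list, and without marked doublets the log2 ratio of Pgk1 was 0.74. Tumour cells held Pgk1 at 1149 CPM in the serine/glycine-free library and 694 CPM in the control library.

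Cell division genes were low in the pDCs of both libraries. Their sum over 20 genes was 850 CPM in serine/glycine-free pDCs and 876 CPM in control pDCs, against 7442 and 5148 CPM in cDC1s. Mki67, a marker of dividing cells, had 1 UMI in serine/glycine-free pDCs and 0 in control pDCs, against 146 and 111 UMIs in cDC1s.

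The genes furthest higher in serine/glycine-free pDCs had few UMIs in control pDCs. Genes scarce in control pDCs passed the minimum of 20 UMIs only through serine/glycine-free pDCs, so their low control counts describe the choice. Gab2, a signalling adaptor, had 41 UMIs in 24 serine/glycine-free cells and 4 UMIs in 4 control cells, a log2 ratio of 2.48 (1.16 to 4.57). Without the limit on tumour genes, an alternative added after seeing the data, its ratio was 0.24. That alternative added 19 serine/glycine-free and 7 control cells, with medians of 12348 and 18349 UMIs. The part of tumour RNA in this value was not tested. The ratio of Gab2 was -0.11 in cDC1s, 0.11 in C1q macrophages and 0.10 in tumour cells. Ap3s1, a subunit of the AP-3 sorting complex, had 21 UMIs in serine/glycine-free pDCs and 1 in control pDCs, a log2 ratio of 3.11 (1.03 to 9.03). Fhit had 25 UMIs in serine/glycine-free pDCs and 2 in control pDCs. The glycosyltransferase gene Galnt1 (37 and 5 UMIs), the sphingomyelin synthase gene Sgms1 (22 and 2), the histone demethylase gene Kdm4c (26 and 3), the repressor Trps1 (26 and 3), Zfc3h1 (25 and 3) and the ubiquitin ligase gene Ubr3 (28 and 4) completed the list with Pgk1.

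The genes furthest lower in serine/glycine-free pDCs held transcripts that were lower in other cell types too. AY036118, which lies over ribosomal RNA repeats, had 58 UMIs in serine/glycine-free pDCs and 130 in control pDCs, a log2 ratio of -1.89 (-2.36 to -1.43). Its ratio was -1.65 in cDC1s and -1.49 in C1q macrophages. Gm42418, of the same repeats, had a ratio of -0.74 in pDCs, -0.85 in cDC1s and -0.58 in C1q macrophages. Both therefore differed between the libraries in every one of these cell types.

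Ifi27l2a, an interferon-induced gene, had 23 UMIs in serine/glycine-free pDCs and 44 in control pDCs, a log2 ratio of -1.65 (-2.46 to -0.90). Its ratio was -0.46 in cDC1s, -0.57 in C1q macrophages and -1.37 in B cells, with 9 UMIs in control B cells. In tumour cells Ifi27l2a went the other way, with a ratio of 0.68. Blnk had 84 UMIs in serine/glycine-free pDCs and 99 in control pDCs, a ratio of -0.96 (-1.40 to -0.53), and 0.09 in C1q macrophages. Iglc3, a lambda light chain constant gene, had 28 and 41 UMIs, a ratio of -1.27 (-2.03 to -0.55). Its near-identical relative Iglc2 had 40 UMIs in serine/glycine-free pDCs and 15 in control pDCs, so the split of reads between the pair is uncertain. The cholesterol exporter gene Abcg1 (11 and 26 UMIs), Rlim (5 and 16), the inhibitory lectin gene Clec12a (25 and 36), the chaperonin gene Hspe1 (18 and 28) and the translocon gene Sec61a1 (19 and 29) were the others. Clec12a had ratios of 0.38 in cDC1s and 0.60 in C1q macrophages.

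**Figure D5:**
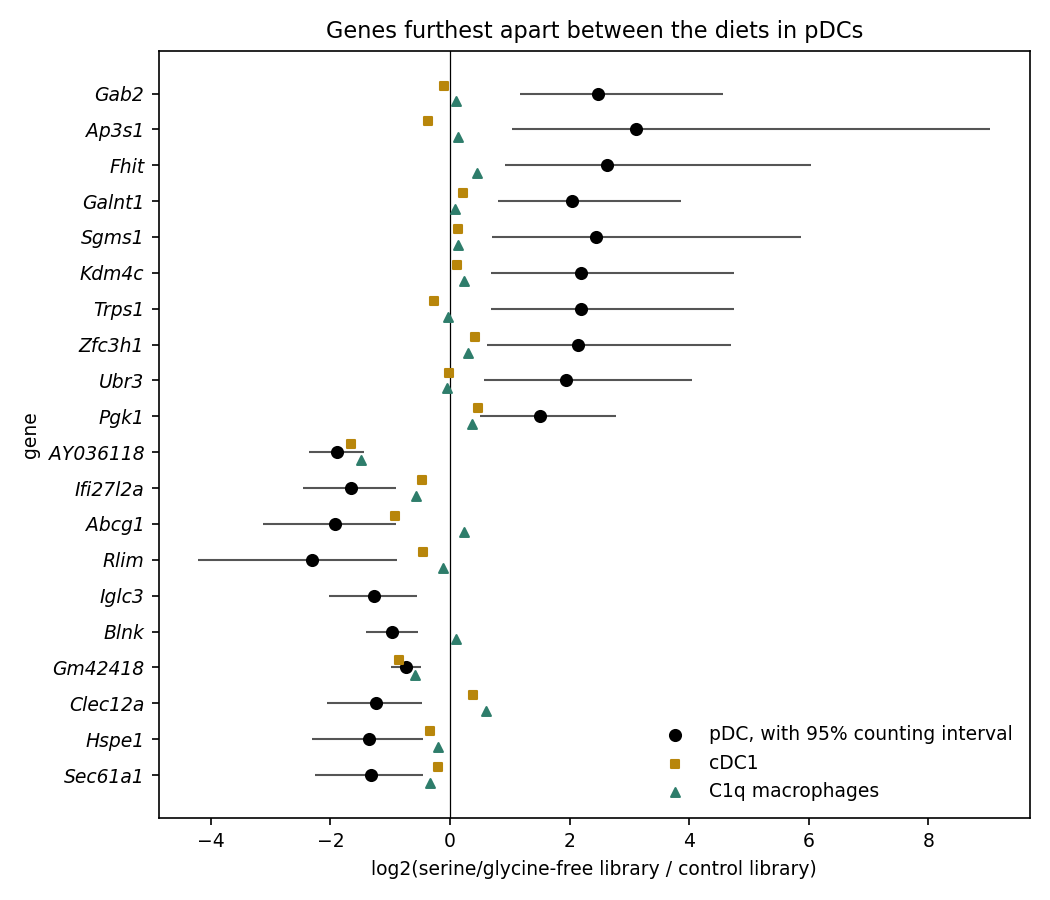
Log2 ratio of the serine/glycine-free over the control library (horizontal axis, with 0.5 UMI added to each sum) for the 10 genes furthest higher and the 10 furthest lower in pDCs, as black points with 95% counting intervals, and in cDC1s and C1q macrophages with at least 20 UMIs as squares and triangles. Gab2 stands at 2.48 in pDCs and near 0 in the other types. Its ratio without the limit on tumour genes, which adds deep cells that carry tumour genes, was 0.24 and is not drawn. AY036118 stands at -1.89 in pDCs, -1.65 in cDC1s and -1.49 in C1q macrophages.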

How the data were processed

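The authors deposited raw UMI counts per gene and barcode for 2 libraries, 1 per diet. Per the file headers they were made with Cell Ranger 7.0.1, and the submitters' processing notes name version 2.2.2 and the mm10 genome; annotation and intron handling were not stated. Cells were filtered and chosen as stated, doublets were marked with Scrublet (scanpy 1.11.5, automatic threshold) and kept. UMIs were summed per library and class and scaled to counts per 1000000 (CPM) (numpy 2.4.6, pandas 2.3.3). Ratios used 0.5 UMI added to each sum, with exact binomial intervals at 95% (scipy 1.17.1). Only genes with at least 20 UMIs were compared. C1q macrophages had at least 10 UMIs of C1qa, C1qb and C1qc; tumour cells had at least 10 UMIs of Hmga2 and Rhox5 and no Ptprc; B cells had Cd79a. Named were the genes of the choice, members of the lists, the 12 genes furthest above and below cDC1s by the smaller ratio of both libraries, and for the diets the 10 highest and 10 lowest by the bound nearest to no change. The calculation was tested on simulated sums that held counting error alone. That test cannot show how the calls hold where cells or libraries vary beyond it. Members and lists were chosen with earlier results of these data known. Promoters came from RefSeq.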

Additional observations from a re-analysis of the deposited data

How the results depend on the processing

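The share of pDCs had ratios of 1.30 to 1.46 under the alternatives among all kept cells, 1.07 among Ptprc-positive cells with few tumour UMIs, and 0.982 among those that also met the Cd3e and C1q limits, a denominator added after seeing the data. The number of genes at least 2-fold higher in serine/glycine-free pDCs (62) was 96 with a minimum of 10 UMIs per gene and 5 with a minimum of 50, and the number lower (44) was 84 and 10. With Hmga2 and Rhox5 held at 0, the counts were 37 higher and 40 lower, 21 and 25 of them among the 62 and 44, and with no limit on them 185 were higher and 94 lower, with 9 and 21 shared; both were added after seeing the data. Without a limit the log2 ratio was 0.24 for Gab2, 0.21 for Galnt1, 0.06 for Kdm4c, 0.31 for Trps1, 0.16 for Ubr3, 0.49 for Pgk1 and -1.45 for Gm42418. The cells this added had medians of 12348 and 18349 UMIs, against 2461 and 2753 in the members, and the part of tumour RNA was not tested. Against cDC1s, a minimum of 50 UMIs left 227 genes higher and 257 lower. No named gene changed sign under the alternatives run. The 7 values of named diet genes counted as moved were those given above without the tumour-gene limit. Each of these lay outside the counting interval of its main ratio. Without marked doublets Pgk1 was not counted as moved, yet its ratio fell below 2-fold. Subtracting tumour RNA gave 62 higher and 43 lower, 57 and 40 of them among the 62 and 44. With the most-UMI cell of each gene left out, 63 were higher and 30 lower, with 48 and 28 shared. With the same weight for each cell, 67 were higher and 57 lower, with 45 and 35 shared. Without marked doublets, 61 were higher and 40 lower, with 51 and 33 shared. No paired analysis was possible because each diet has 1 library, and for the same reason none could be left out. Intervals cover counting error only.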
